A study of Mus musculus with 2 samples.

Results

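The Notch receptors, ligands and targets were followed through single cells of the mouse esophagus. The members, chosen by name, were 10 of the 18595 genes measured. They were the receptors Notch1, Notch2 and Notch3, the ligands Dll1, Dll4, Jag1 and Jag2, the ligand homologue Dlk2, and the target genes Hes1 and Hey1. All 10 members were seen in both libraries. Unique molecular identifiers (UMIs), which count captured RNA molecules, ranged over all cells from 19 for Dll4 to 4510 for Hes1 in the control library, and from 42 for Dll4 to 3230 for Hes1 in the Keap1 cKO library. Each library came from esophagus stripped of its muscle layer, from mice of a C57BL/6J and BALB/c hybrid background. Both genotypes carried Keap1 floxB/floxB; the control library had this allele alone and the Keap1 cKO library had K5CreERT2 as well. K5CreERT2 is a Cre recombinase fused to a tamoxifen-responsive receptor domain and driven by the keratin 5 promoter, which is active in basal keratinocytes, so fibroblasts, endothelium and blood cells lie outside its usual range. Keap1 encodes the adaptor that sends the transcription factor NRF2 to degradation. The age of the mice, their number, the time after Cre induction and the exons lost from floxB are not given in the labels read here.

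The control library held 2472 cells and 30501227 UMIs, and the Keap1 cKO library 2381 cells and 26036522 UMIs. Each genotype had 1 library, so no test was made, and every interval is a 95% interval for counting error only. Levels are summed UMIs of a gene per 1000000 UMIs (CPM) of the same cells. A gene is called higher or lower in a count only at 2-fold or more with at least 20 UMIs over both groups. Keap1, the targeted gene, had 961 UMIs or 69.8 CPM in control epithelial cells and 332 UMIs or 44.5 CPM in Keap1 cKO epithelial cells, and a 3′ tag outside the deleted exons would check nothing about the deletion. The authors annotated 848 control and 422 Keap1 cKO cells as epithelial, in clusters that they numbered. Cluster 4 (313 control and 93 Keap1 cKO cells) is called basal-like here and cluster 13 (134 and 61 cells) suprabasal-like. All 7 basal markers, among them Krt5, Krt14, Krt15 and Trp63, and all 6 suprabasal markers, among them Krt4, Krt13 and Krtdap, were detected in both clusters, so the names rest on summed levels. The basal markers summed to 17537 and 13189 CPM in cluster 4 of the control and Keap1 cKO library and to 4919 and 9397 CPM in cluster 13, and the suprabasal markers to 7414 and 5604 CPM in cluster 4 and to 46370 and 30562 CPM in cluster 13. The basal marker Col17a1 was among the 10 leading genes of cluster 4, and none of the suprabasal markers was among those of cluster 13. Cluster 9 (114 and 140 cells), led by the late cornified envelope genes Lce3c, Lce3a and Lce3b, and cluster 10 (170 and 81 cells) held cells of low depth and were left unnamed. The endothelial cluster 8 (53 and 203 cells) had all 8 endothelial markers in both libraries, and cluster 18 (27 and 15 cells) was led by lymphatic genes such as Flt4, Prox1 and Lyve1.

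Notch receptors are membrane proteins that are activated by ligands of the Delta-like and Jagged families on a neighbouring cell. Binding exposes the receptor to ADAM proteases and then to gamma-secretase, and the released intracellular domain joins RBPJ and Mastermind-like proteins in the nucleus to switch on genes such as Hes1 and Hey1, which encode transcriptional repressors. In stratified epithelia the pathway is known for its part in the passage of basal cells into the differentiating suprabasal layers, and in vessels Dll4 and Notch1 shape arterial identity and sprouting. Dlk2 encodes a membrane protein related to the Delta-like ligands that lacks the domain by which those ligands activate receptors and is held to inhibit Notch1.

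On mm10, Notch1 lies on chromosome 2 at 26457903 to 26516663, Notch2 on chromosome 3 at 98013527 to 98150361 and Notch3 on chromosome 17 at 32120820 to 32166852. The Delta-like ligand gene Dll1 lies on chromosome 17 at 15367354 to 15376872 and Dll4 on chromosome 2 at 119325784 to 119335962. Jag1 lies on chromosome 2 at 137081456 to 137116644, Jag2 on chromosome 12 at 112907819 to 112929776 and Dlk2 on chromosome 17 at 46297421 to 46303271. Hes1 lies on chromosome 16 at 30064384 to 30067796 and Hey1 on chromosome 3 at 8663359 to 8667256. The 250 bases upstream of the start are shown for the members whose basal levels differed most between genotypes (Notch3, Dll1 and Dlk2) and for Jag2, which shared the basal preference of Dll1 and Dlk2. The sequences are RefSeq's, on GRCm38.p6, and are written 5′ to 3′ on the gene's strand; where RefSeq gives more than 1 start, that farthest upstream is shown. Capitals mark matches to CACGNG, a motif bound by HES and HEY proteins, or to TGANTCA, the AP-1 motif. The windows are chr17:32166891-32167140 on the minus strand for Notch3, chr17:15376933-15377182 on the minus strand for Dll1, chr12:112929496-112929745 on the minus strand for Jag2 and chr17:46297233-46297482 on the plus strand for Dlk2.
Notch3: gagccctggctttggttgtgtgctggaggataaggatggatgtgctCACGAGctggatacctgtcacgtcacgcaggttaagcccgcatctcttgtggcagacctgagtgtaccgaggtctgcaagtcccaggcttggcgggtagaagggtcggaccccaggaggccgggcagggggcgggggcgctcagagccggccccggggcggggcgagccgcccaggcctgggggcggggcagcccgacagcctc
Dll1: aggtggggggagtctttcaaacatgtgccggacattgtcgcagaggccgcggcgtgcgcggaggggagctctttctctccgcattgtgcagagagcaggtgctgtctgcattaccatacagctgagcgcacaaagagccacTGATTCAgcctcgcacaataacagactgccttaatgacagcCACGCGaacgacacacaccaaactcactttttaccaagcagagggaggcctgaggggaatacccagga
Jag2: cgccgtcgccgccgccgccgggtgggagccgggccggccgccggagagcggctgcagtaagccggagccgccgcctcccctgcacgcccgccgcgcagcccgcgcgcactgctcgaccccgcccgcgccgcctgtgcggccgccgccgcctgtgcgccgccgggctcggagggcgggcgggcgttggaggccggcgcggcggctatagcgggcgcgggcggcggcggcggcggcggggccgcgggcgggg
Dlk2: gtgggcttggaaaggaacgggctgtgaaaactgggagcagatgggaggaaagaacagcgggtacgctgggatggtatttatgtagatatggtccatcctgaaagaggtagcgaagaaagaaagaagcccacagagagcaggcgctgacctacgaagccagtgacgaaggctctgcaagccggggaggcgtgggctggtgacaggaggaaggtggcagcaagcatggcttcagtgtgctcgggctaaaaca
CACGNG stood 204 bases before the Notch3 start and 68 bases before the Dll1 start, and TGANTCA 109 bases before the Dll1 start. The Jag2 window was 87.2% G and C, against 55.6% in the Dlk2 window, 56.0% in the Dll1 window and 68.8% in the Notch3 window. RefSeq's table held 8 of the 10 members with 10 windows in all. On both strands, CACGNG was found in 6 of these 10 windows and in 23.5% of the 32851 windows of all genes, and TGANTCA in 1 of 10 and in 6.75%. The core of the antioxidant response element bound by NRF2, TGACNNNGC, was in 0 of 10 windows and in 10.2% of all windows, and the RBPJ motif TGGGAA in 0 of 10 and in 21.6%. These matches describe letters in these windows and no more.

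The members differed in where they were found. Levels are ordered here among the 12 clusters with at least 50 cells in both libraries, and smaller clusters are given beside that order. Notch1, the receptor most tied to keratinocyte differentiation, was highest in the basal-like cluster 4 of the control library, at 239 CPM (227 to 251), above endothelial cluster 8 at 182 CPM (148 to 222). The suprabasal-like cluster 13 followed at 156 CPM (144 to 168), an interval that overlapped that of cluster 8. In the Keap1 cKO library this order was turned: cluster 8 was highest at 235 CPM (217 to 254), and cluster 4 followed at 163 CPM (148 to 180), with intervals apart. The small lymphatic cluster 18 stood above both, at 308 CPM (226 to 409) in the control and 326 CPM (247 to 423) in the Keap1 cKO library. Notch2, a receptor of many tissues, was highest outside the epithelium. Control levels were 129 CPM (118 to 141) in fibroblast cluster 5 and 116 CPM (101 to 133) in myeloid cluster 2, which overlapped. Control clusters 4 and 13 had 15.4 and 40.2 CPM. In the Keap1 cKO library cluster 2 came first at 121 CPM (107 to 136), apart from cluster 5 at 78.3 CPM (67.2 to 90.7). Cluster 6, at 80.4 CPM from 12 UMIs, overlapped both. Outside the order, myeloid cluster 17 had 261 CPM (95.7 to 568) from 6 UMIs in 4 control cells. Its Keap1 cKO level was 150 CPM (99.8 to 217) from 28 UMIs. Notch3, known as the receptor of vascular mural cells, had 90.6% of its control UMIs and 91.5% of its Keap1 cKO UMIs in epithelial cells. Such shares depend on which cells were captured. In the control library Notch3 was highest in cluster 13, at 52.8 CPM (46.1 to 60.2), which overlapped 36.9 CPM (21.5 to 59.2) in cluster 6. In the Keap1 cKO library cluster 6 came first at 107 CPM (61.3 to 174) and overlapped cluster 13 at 72.7 CPM (62.4 to 84.3). The cells of cluster 6 had median depths of only 1207 and 772 UMIs, and its Notch3 levels rest on 17 and 16 UMIs from 6 and 2 cells. The 4 mural cell markers summed to 396 and 576 CPM in cluster 6. They summed to 109 and 176 CPM in fibroblast cluster 1 and to 12.6 and 11.9 CPM in epithelial cells. Of these markers, Rgs5 had 0 UMIs in cluster 6 of both libraries and Cspg4 had 0 in the Keap1 cKO library. Keratinocyte markers were also found in cluster 6. The 7 basal markers summed to 3182 and 342 CPM there and the 6 suprabasal markers to 2165 and 979 CPM. Of the basal markers, Itgb4, Col17a1 and Trp63 had 0 UMIs in cluster 6 of the Keap1 cKO library. In fibroblast cluster 1 the basal markers summed to 348 and 252 CPM and the suprabasal markers to 572 and 600 CPM. The part of mural cells or of keratinocytes in the Notch3 level of cluster 6 was not tested. In endothelial cluster 8 Notch3 had 0 UMIs in both libraries, where 3 counts would be 5.63 CPM in the control and 1.06 CPM in the Keap1 cKO library.

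**Figure D1:**
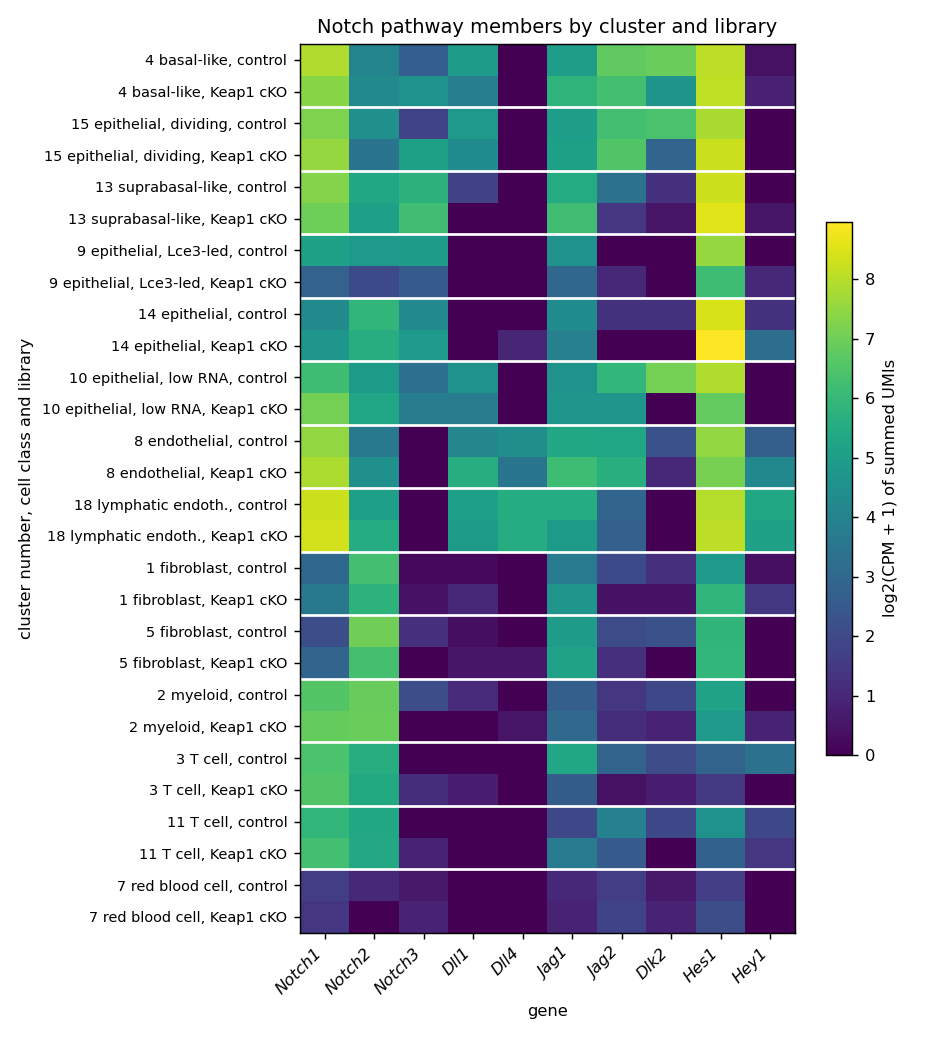
Level of each of the 10 members (columns) in 14 clusters of both libraries (rows), coloured by log2(CPM + 1) of summed UMIs, with 1 library per genotype and no error shown. Jag2 and Dlk2 are bright in cluster 4 and dark in cluster 13, Dll4 is seen almost only in the endothelial clusters 8 and 18, and Hes1 is bright in epithelial and endothelial clusters; levels of different genes are not compared, since the genes differ in length and capture.

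Among the ligands, Dll4, the Delta-like ligand of arterial and sprouting endothelium, was the most restricted. It had 18 of its 19 control UMIs and 37 of its 42 Keap1 cKO UMIs in cells annotated as endothelial, and 0 UMIs in cluster 4 and cluster 13 of either library. Jag2 and Dlk2 marked the basal-like cells. Jag2 reached 109 CPM (101 to 117) in control cluster 4, apart from 60.7 CPM (37.6 to 92.8) in cluster 10, the next in that order. Of the clusters outside the order, cluster 15 had 77.9 CPM (64.9 to 92.8) and cluster 16, with 24 control cells, 102 CPM (78.1 to 131), which overlapped cluster 4. For Dlk2, cluster 4 at 119.9 CPM (112 to 129) overlapped the shallow cluster 10 at 136 CPM (99.8 to 181), and 30.4 CPM (16.6 to 51.1) in cluster 6 came next in the order; outside it, clusters 15 and 16 had 82.9 CPM (69.4 to 98.2) and 48.5 CPM (32.5 to 69.7). Both genes are among the 10 genes that lead cluster 4, Dlk2 first at 13.6-fold and Jag2 ninth at 8.21-fold over the rest, so their place there is part of how the cluster was made. Within the order, Dll1, a ligand of basal keratinocytes, was highest in control cluster 4 at 29.7 CPM (25.7 to 34.2). Clusters 10, 6 and 8 overlapped it, at 23.1 CPM (9.98 to 45.6), 17.4 CPM (7.51 to 34.3) and 16.9 CPM (7.73 to 32.1). These levels rest on 8, 8 and 9 UMIs. In the Keap1 cKO library Dll1 was highest in endothelial cluster 8 at 46.8 CPM (39.1 to 55.5). Cluster 6 overlapped that level, at 33.5 CPM (10.9 to 78.2) from 5 UMIs. Outside the order, cluster 18 had 32.8 and 28.6 CPM from 5 UMIs in each library. Control cluster 17, annotated as myeloid and with 4 cells, had 43.5 CPM from 1 UMI. Jag1, a Jagged ligand known in differentiating keratinocytes, was spread more widely: its control levels in cluster 13 at 45.2 CPM, T cell cluster 3 at 40.6 CPM (13 UMIs), cluster 8 at 39.4 CPM and cluster 4 at 30.6 CPM each overlapped the one before.

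Of the targets, Hes1 was highest within the order in epithelial clusters 13 and 4, and was also found in endothelium. Its control level was 308 CPM (291 to 325) in cluster 13 and 268 CPM (256 to 281) in cluster 4, intervals that lay apart, and then 237 CPM in cluster 10, 185 CPM in cluster 9 and 184 CPM in endothelial cluster 8. In the Keap1 cKO library clusters 13 and 4 led at 366 and 278 CPM, and endothelial cluster 8 followed at 140 CPM (126 to 154). Cluster 8 overlapped cluster 10 at 112 CPM (9 UMIs) and lay apart from cluster 9 at 71.7 CPM (55.9 to 90.6). The small epithelial cluster 14, with 42 and 40 cells, had 347 CPM in the control and 500.1 CPM in the Keap1 cKO library. In control T cells of cluster 3 Hes1 had 2 UMIs, or 6.25 CPM, beside 2.09 CPM in red blood cells of cluster 7. Hey1, a target known from endothelium, had 25 control UMIs and 83 Keap1 cKO UMIs in all, of which 9 and 55 lay in cells annotated as endothelial and 3 and 13 in epithelial cells. In the lymphatic cluster 18, with few cells, Hes1 stood at 249 and 269 CPM, Dll4 at 45.9 and 45.8 CPM (7 and 8 UMIs) and Hey1 at 39.3 and 34.3 CPM (6 and 6 UMIs) in the control and Keap1 cKO library.

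Endothelial cells were many more in the Keap1 cKO library and epithelial cells fewer, and the cells that supplied a member's UMIs differed. Epithelial cells held 88.5% of Dll1 UMIs in the control and 22.1% in the Keap1 cKO library, and endothelial cells 4.86% and 72.1%. For Jag2 the epithelial share was 86.0% and 58.6%, for Notch1 82.7% and 34.8%, and for Hes1 84.1% and 71.6%. Dlk2 stayed epithelial in both, at 92.4% and 87.8%. These shares combine the number of cells of each class, their depth and the level per cell, and the part of each was not tested.

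The next comparison set basal-like cluster 4 against suprabasal-like cluster 13 within each library. The clusters were made from all genes, so this describes the layers and is no test of them. In the control library 8 members had at least 20 UMIs, of which 3 were higher in cluster 4 (Dll1, Jag2, Dlk2) and 2 lower (Notch2, Notch3). Over all 10876 genes with as many UMIs, 20.2% differed by at least 2-fold, 14.3% higher and 5.9% lower. The members' median log2 ratio was 0.21, against 0.18 for all genes. The ligands Dll1 and Jag2 and the homologue Dlk2 thus lay on the basal side, and Notch3 and Notch2 on the suprabasal side.

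Dlk2 had 779 UMIs in 313 control cells of cluster 4 and 6 UMIs in 134 cells of cluster 13, or 6.39 (5.26 to 7.84) on the log2 scale. Jag2 had 709 and 40 UMIs, or 109 and 9.52 CPM, or 3.52 (3.06 to 4.02) on the log2 scale. Dll1 stood at 29.7 and 2.38 CPM, or 3.64 (2.73 to 4.73) on the log2 scale. In none of these 3 genes did the intervals of the levels in clusters 4 and 13 overlap. Notch3 ran the other way, with 5.39 CPM in cluster 4 and 52.8 CPM in cluster 13, or −3.29 (−3.85 to −2.77) on the log2 scale. Notch2 stood at 15.4 and 40.2 CPM, or −1.39 (−1.76 to −1.02) on the log2 scale. The other members differed less between the layers: the log2 ratio was 0.62 (0.48 to 0.75) for Notch1, −0.56 (−0.86 to −0.27) for Jag1 and −0.20 (−0.30 to −0.09) for Hes1.

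In the Keap1 cKO library the same 3 genes (Dll1, Jag2, Dlk2) were higher in cluster 4 and 1 member, Notch3, was lower, among 8 with at least 20 UMIs; over all 9937 genes 18% differed by at least 2-fold, 12.5% higher and 5.49% lower. Jag2 had 200 UMIs in 93 cells of cluster 4 and 4 UMIs in 61 cells of cluster 13, or 5.53 (4.15 to 7.42) on the log2 scale. Dll1 had 35 and 0 UMIs, so its log2 ratio was at least 3.43, with 3 counts for the group put in place of 0. Dlk2 had 62 and 1 UMIs, or 5.84 (3.31 to 11.17) on the log2 scale. Notch3 was less unequal here than in the control library, at 22.6 CPM in cluster 4 and 72.7 CPM in cluster 13, or −1.69 (−2.14 to −1.25) on the log2 scale; the difference between the libraries was not tested. Notch2 had −0.83 (−1.38 to −0.29), Jag1 −0.42 (−0.75 to −0.10), Notch1 0.37 (0.15 to 0.58) and Hes1 −0.39 (−0.54 to −0.25). Keratins of the layers are given beside these values. The log2 ratio of cluster 4 over cluster 13 for the basal keratins was 3.29 in the control and 0.44 in the Keap1 cKO library for Krt14, and 1.45 and 0.13 for Krt5. For the suprabasal keratins it was −4.16 and −3.22 for Krt4, and −2.03 and −2.63 for Krt13, which alone of the 4 was more unequal in the Keap1 cKO library. The part of these states in the members' levels was not tested.

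**Figure D2:**
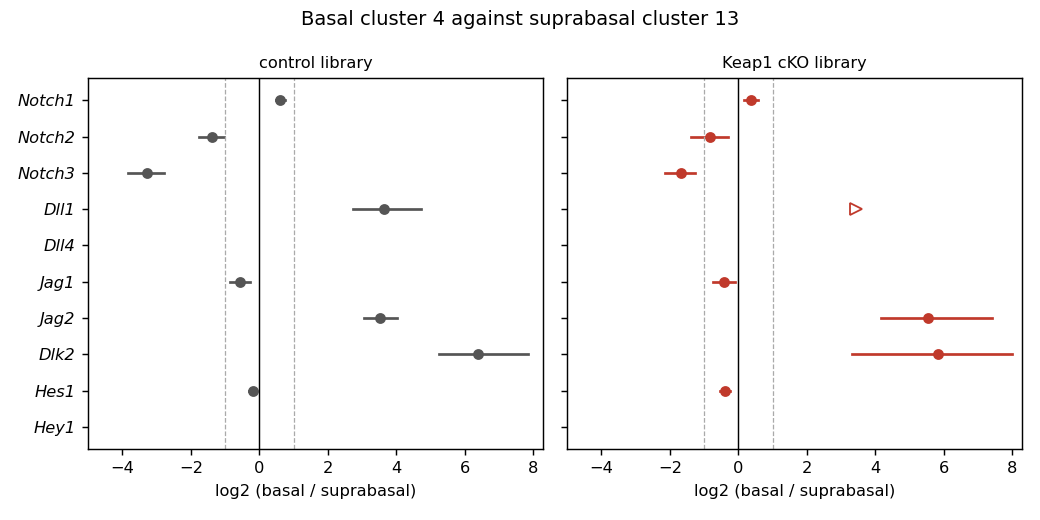
Log2 ratio of CPM in basal-like cluster 4 over suprabasal-like cluster 13 for each member with at least 20 UMIs (vertical axis), in the control library (left) and the Keap1 cKO library (right); bars are exact 95% counting intervals, dashed lines mark 2-fold, and the open triangle is a lower bound (the bar of Dlk2 on the right runs to 11.17, past the axis). Dll1, Jag2 and Dlk2 lie to the right of the 2-fold line in both libraries and Notch3 to the left.

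The main contrast, Keap1 cKO against control, was read first over all epithelial cells. Of 8 members with at least 20 UMIs, 0 were higher and 3 were lower in the Keap1 cKO library: Dll1, Jag2 and Dlk2, the genes of the basal side. Over all 12638 genes, 17.5% differed by at least 2-fold, 10.6% higher and 6.87% lower, and the medians were −0.39 for the members and −0.02 for all genes. Cluster 4 gave 313 of the 848 control and 93 of the 422 Keap1 cKO epithelial cells, so these sums also carry the mixture of layers. Dll1 stood at 18.5 CPM (255 UMIs) in the control and 5.64 CPM (42 UMIs) in the Keap1 cKO library, or −1.72 (−2.22 to −1.24) on the log2 scale. For Jag2 the levels were 65.2 and 31.5 CPM, or −1.05 (−1.26 to −0.84) on the log2 scale. Jag2 was just past 2-fold and no longer so without cluster 14, at −0.90, or with clusters 4, 9, 10 and 13 weighted equally, at −0.78, where 2 members were lower. Dlk2, at −3.01, is the lowest member and had 967 and 65 UMIs.

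The receptors took different directions in these epithelial sums. Notch1 was 1.62-fold lower, at 182 and 112 CPM, or −0.70 (−0.81 to −0.58) on the log2 scale. Notch3 was 1.79-fold higher, at 21.0 and 37.6 CPM, or 0.84 (0.60 to 1.08) on the log2 scale. Notch2, at 26.5 and 25.0 CPM, had an interval that held 0, −0.09 (−0.35 to 0.17). Averaged over cells instead of summed, which gives shallow cells the same weight as deep ones, the Notch3 log2 ratio was 0.12. Jag1 had 0.50 (0.29 to 0.70) in sums and −0.03 averaged over cells. Hes1 had 0.17 (0.10 to 0.25) in sums, −0.44 averaged over cells and −0.27 with clusters 4, 9, 10 and 13 weighted equally, so no direction is given for it in the epithelium as a whole. Hey1 had 3 and 13 UMIs, of which 1 and 9 lay in cluster 14.

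Basal-like cluster 4 was next read without the other epithelial clusters, though layer markers within it also differed between the libraries, as given below. Of 8 members with at least 20 UMIs, 1 was higher in the Keap1 cKO library (Notch3) and 2 were lower (Dll1, Dlk2). Over all 10956 genes 18.9% differed by at least 2-fold, 9.94% higher and 8.96% lower, and the medians were −0.23 for the members and 0.00 for all genes. Dlk2 stood at 119.9 CPM (779 UMIs) in the control and 23.7 CPM (62 UMIs) in the Keap1 cKO library, or −2.34 (−2.73 to −1.96) on the log2 scale. Dll1 stood at 29.7 and 13.4 CPM (193 and 35 UMIs), or −1.15 (−1.71 to −0.62) on the log2 scale. Jag2, the third basal-side gene, was less than 2-fold lower here, at 109 and 76.5 CPM, or −0.51 (−0.75 to −0.28) on the log2 scale. Jag1 was the ligand that was higher, at 30.6 and 55.5 CPM, or 0.86 (0.54 to 1.17) on the log2 scale.

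Notch1 stood at 239 CPM (1552 UMIs) in control cluster 4 and 163 CPM (427 UMIs) in Keap1 cKO cluster 4, or −0.55 (−0.71 to −0.39) on the log2 scale. Hes1 was nearly level in sums, at 268 and 278 CPM, or 0.05 (−0.08 to 0.18) on the log2 scale, −0.28 when averaged over cells and −0.0026 with median-of-ratios scaling, so no direction is given. Notch2 had 0.26 (−0.27 to 0.77) from 100 and 48 UMIs, and −0.04 averaged over cells. Notch3 had 35 UMIs (5.39 CPM) in the control and 59 UMIs (22.6 CPM) in the Keap1 cKO library, or 2.07 (1.44 to 2.71) on the log2 scale. Few cells carried that Notch3 signal: 5 cells held 57.6% of the 59 UMIs, and averaged over cells the log2 ratio was 1.17. Dlk2 and Dll1 were likewise held by few Keap1 cKO cells, with 59.7% and 51.4% of their UMIs in 5 cells. The members with most UMIs among these 93 cells, Hes1, Notch1 and Jag2, had 30.1%, 27.6% and 30% there. Among the 313 control cells, 5 cells held 37.1% of Notch3, 14.5% of Dll1 and 7.7% of Dlk2 UMIs. Such a share rises when cells or UMIs are fewer, so no difference between the genotypes is read from it.

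Cycling cells differed between the libraries in this cluster. The summed cycling markers Mki67, Top2a, Cdk1 and Ccnb1 stood at 103 CPM in control and 699.6 CPM in Keap1 cKO cluster 4, while cluster 15, with 1665 and 1562 CPM of these markers, held 75 and 7 cells. A comparison without every cell that had a UMI of these 4 genes was added after the data were seen. It kept 146 control and 25 Keap1 cKO cells, with median depths of 21073 and 5832 UMIs. Notch3 then had 18 UMIs in the control and 0 in the Keap1 cKO library, too few for the count, so that the number of members higher went from 1 to 0 and all 59 Keap1 cKO UMIs of Notch3 lay in cells with a cycling marker UMI. Dlk2 stood at −1.95 (450 and 12 UMIs) and Dll1 at −1.25 (116 and 5 UMIs) on the log2 scale. With clusters 4 and 15 summed as 1 group, also added later, Notch3 had 2.30, Dlk2 −2.36 and Dll1 −1.06. In the same cluster the basal keratin Krt15 stood at 7794 and 1066 CPM, Krt14 at 3595 and 6661 CPM, and Trp63, the transcription factor of basal keratinocytes, at 305 and 204 CPM. The suprabasal marker list stood at 7414 and 5604 CPM, a sum whose members split. Krtdap was higher in the Keap1 cKO library, at 149 and 1652 CPM. Dmkn, at 469 and 942 CPM, and Sbsn, at 50.8 and 82.3 CPM, were also higher. Krt13, at 6076 and 2281 CPM, and Grhl3, at 16.8 and 8.04 CPM, were lower. Krt4 was near level, at 653 and 638 CPM. The 5 T cell markers stood at 2.92 and 67.4 CPM, and the 5 red blood cell markers at 661 and 3609 CPM. All markers of these lists were detected in both libraries. Their part in the members' differences was not tested.

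In suprabasal-like cluster 13, 6 members had at least 20 UMIs, of which 0 were higher and 1, Jag2, was lower in the Keap1 cKO library. Over all 9875 genes 13.4% differed by at least 2-fold, 7.04% higher and 6.32% lower; the medians were −0.02 for the members and −0.03 for all genes. Jag2 had 40 UMIs (9.52 CPM) in 134 control cells and 4 UMIs (1.65 CPM) in 61 Keap1 cKO cells, or −2.53 (−4.47 to −1.06) on the log2 scale. Dll1 had 10 and 0 UMIs and Dlk2 6 and 1, too few for the count. The members of the suprabasal side were present in both libraries: Notch3 stood at 52.8 and 72.7 CPM, or 0.46 (0.17 to 0.75) on the log2 scale, and Jag1 at 45.2 and 74.4 CPM, 0.72 (0.42 to 1.02). Hes1 stood at 308 and 366 CPM, 0.25 (0.12 to 0.37), and 0.06 averaged over cells. Notch1 had −0.30 (−0.50 to −0.10) and Notch2 −0.30 (−0.71 to 0.09). Notch1, Notch3, Jag1 and Jag2 had the same directions in clusters 13 and 4, which share their libraries, so this is no independent repeat. Only Jag2 reached 2-fold in cluster 13, and only Notch3 of these 4 did so in cluster 4. Markers within cluster 13 also differed between the libraries. Krt14 stood at 369 and 4908 CPM, Krt15 at 2422 and 173 CPM and Krt4 at 11679 and 5949 CPM. The 6 fibroblast markers summed to 280 and 1450 CPM. The part of these markers in the members' differences was not tested.

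Cluster 9 gave little signal, with median depths of 1441.5 and 2456.5 UMIs per cell. Only Hes1 and Notch1 had at least 20 UMIs, and both were lower in the Keap1 cKO library; over all 4713 genes 30.3% differed by at least 2-fold, 12.3% higher and 18% lower. Hes1 stood at 185 CPM (82 UMIs) and 71.7 CPM (70 UMIs), or −1.37 (−1.85 to −0.89) on the log2 scale. Notch1, from 15 and 6 UMIs, had −2.46 (−4.11 to −1.01), and averaged over cells it was 0.0037, so no direction is given. Median-of-ratios scaling moved all genes by −0.27 in this cluster. Notch2, Notch3 and Jag1 had between 3 and 13 UMIs in each library there.

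**Figure D3:**
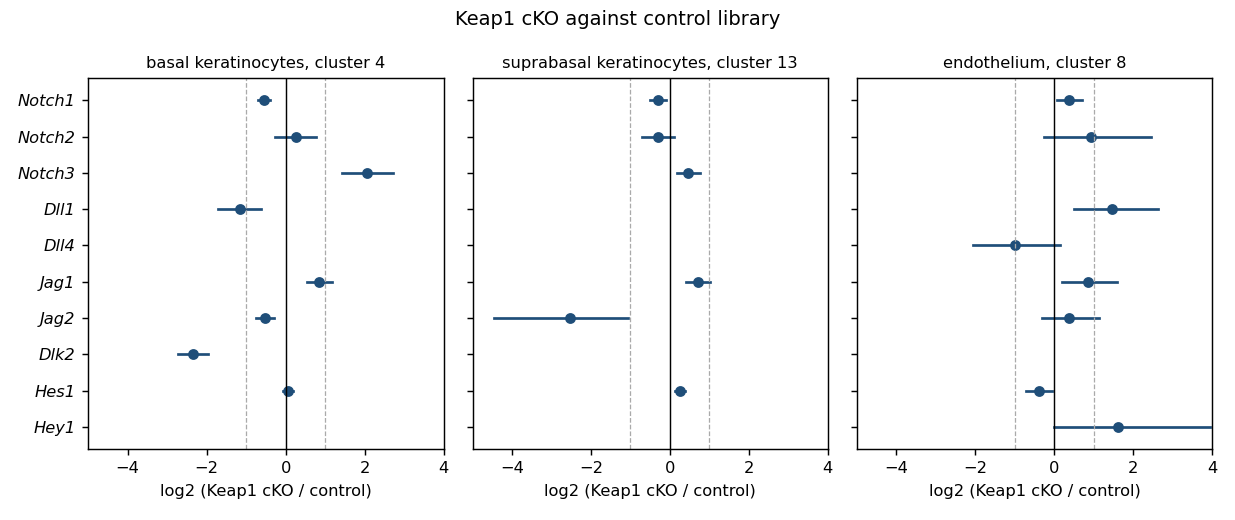
Log2 ratio of CPM in the Keap1 cKO library over the control library for each member with at least 20 UMIs (vertical axis), in basal-like cluster 4, suprabasal-like cluster 13 and endothelial cluster 8; bars are exact 95% counting intervals and dashed lines mark 2-fold. Dlk2 and Dll1 lie left of the 2-fold line and Notch3 right of it in cluster 4, Jag2 lies left of it in cluster 13, and Dll1 and Hey1 lie right of it in cluster 8 with wide intervals.

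Shares of cells with a UMI gave another view, after each cell had been thinned to 5000 UMIs so that depth was equal. This kept 311 of 313 control and 70 of 93 Keap1 cKO cells in cluster 4, and 131 of 134 and 54 of 61 in cluster 13. Red blood cells of cluster 7, taken to lack these genes, gave the free-RNA level, and no member exceeded 1.71% of their cells (178 control and 117 Keap1 cKO cells, with median depths of 10831 and 10330 UMIs before thinning). In cluster 4, Dlk2 was seen in 34.7% (29.4 to 40.3) of control cells and 5.71% (1.58 to 13.99) in the Keap1 cKO library, intervals that lay apart; at full depth the shares were 65.2% and 21.5%. Jag2 was seen in 39.2% and 25.7%, Dll1 in 13.8% and 5.71%, and Notch1 in 55.3% and 45.7%. Hes1, at 58.2% and 57.1%, and Jag1, at 14.8% and 17.1%, were close. Notch3 was seen in 2.57% and 1.43%, which runs against its CPM and is near the free-RNA level, so no order is read from it; at full depth the shares were 7.99% and 21.5%. In cluster 13, Notch3 was seen in 23.7% and 35.2% of cells and Hes1 in 68.7% and 70.4%. Jag2 was seen there in 7.63% of 131 cells in the control library and in 0 of 54 in the Keap1 cKO library, where 3 counts would be 5.56%.

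**Figure D4:**
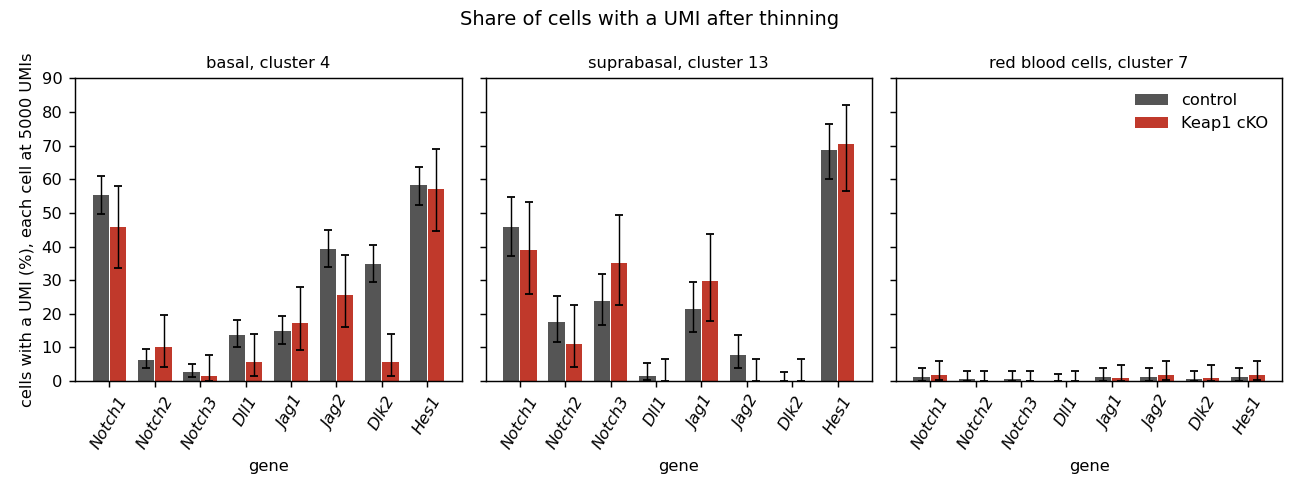
Percent of cells with at least 1 UMI of each member after every cell was thinned to 5000 UMIs, in basal-like cluster 4, suprabasal-like cluster 13 and red blood cells of cluster 7; grey bars are control, red bars Keap1 cKO, and whiskers are exact 95% counting intervals. The share with Dlk2 in cluster 4 is 34.7% in the control and 5.71% in the Keap1 cKO library, Hes1 is near 58% in both, and red blood cells stay below 2% for every member.

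Endothelium was compared as cells outside the usual range of the keratin 5 promoter. In cluster 8, 8 members had at least 20 UMIs, of which 2 were higher in the Keap1 cKO library (Dll1, Hey1) and 1 was lower (Dll4). Over all 10055 genes 16.9% differed by at least 2-fold, 13.4% higher and 3.54% lower, and the medians were 0.61 for the members and 0.17 for all genes. Only 53 control cells were behind these values, against 203 Keap1 cKO cells, so the control counts are small. Dll1 had 9 control UMIs (16.9 CPM) and 132 Keap1 cKO UMIs (46.8 CPM), or 1.47 (0.50 to 2.63) on the log2 scale, and after thinning was seen in 10.2% and 18.2% of cells. Dll4 had 11 and 29 UMIs, or 20.7 and 10.3 CPM, a log2 ratio of −1.01 whose interval held 0 (−2.05 to 0.14). For Hey1, with 3 and 49 UMIs, the interval also held 0, at 1.62 (−0.01 to 3.95).

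The remaining endothelial members differed by less than 2-fold. Jag1 stood at 39.4 and 71.2 CPM, or 0.85 (0.20 to 1.58) on the log2 scale, and Notch1 at 182 and 235 CPM, 0.37 (0.06 to 0.69). Hes1 was lower, at 184 and 140 CPM, −0.40 (−0.72 to −0.06). Notch2 had 0.94 (−0.26 to 2.44) and Jag2 0.37 (−0.31 to 1.13), and Dlk2 had 2 and 3 UMIs. Markers of other cell types in this cluster differed between the libraries in both directions. The 7 macrophage and dendritic markers summed to 1947 CPM in the control and 668 CPM in the Keap1 cKO library, all 7 detected in both. The 5 T cell markers summed to 69.5 and 554 CPM, the 6 fibroblast markers to 413 and 1113 CPM and the 5 red blood cell markers to 734 and 1910 CPM, all detected in both. The 4 neutrophil markers, among them S100a8, were at 0 in the control and summed to 161 CPM in the Keap1 cKO library. In that library they summed to 105 CPM in red blood cells of cluster 7 and 125 CPM in fibroblast cluster 1. In its epithelial cells they summed to 7714 CPM, so no neutrophils are read from the 161 CPM. The 8 endothelial markers stood at 6253 and 6798 CPM. The part of other cell types in the members' differences was not tested.

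Endothelial cluster 8 was also set against basal-like cluster 4 within each library. In the control library 0 of 8 members with at least 20 UMIs were higher in cluster 8 and 2 were lower, Jag2 at −1.54 (−2.26 to −0.90) and Dlk2 with 2 against 779 UMIs (interval of the log2 ratio −8.05 to −3.14); over all 10788 genes 38.9% differed by at least 2-fold, 22.2% higher and 16.6% lower. In the Keap1 cKO library all 10 members had at least 20 UMIs, 3 were higher in cluster 8 and 2 lower, against 48.6% of 11272 genes, 32.7% higher and 15.9% lower. Taken in either direction, the counts of both libraries lie near or under these shares, so nothing is read from them about the members. In the Keap1 cKO library the higher genes were Hey1 at 4.50 (2.57 to 7.59), Dll1 at 1.80 (1.26 to 2.39) and Dll4, with 29 UMIs against 0 and thus a log2 ratio of at least 3.16 with 3 counts for the group in place of 0. The lower ones were Dlk2 at −4.48 and Notch3, with 0 UMIs against 59 and thus a log2 ratio of −4.41 or below. Hes1 was lower in cluster 8 in both libraries, at −0.54 in the control and −0.99 (−1.18 to −0.82) in the Keap1 cKO library. Notch1 was −0.39 in the control and 0.52 in the Keap1 cKO library. Median-of-ratios scaling moved all genes by 0.38 and 0.24 in these comparisons, and Notch1 was −0.77 and 0.29 under it.

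In the stroma and immune cells, which expressed few members, Notch2 was 129 CPM in control and 78.3 CPM in Keap1 cKO fibroblasts of cluster 5, or −0.72 (−0.98 to −0.47) on the log2 scale, and −0.50 (−0.76 to −0.23) in fibroblasts of cluster 1. Hes1 in cluster 1 stood at 27.3 and 58.9 CPM, or 1.11 (0.80 to 1.42) on the log2 scale, and Jag1 at 12.2 and 24.5 CPM, 1.01 (0.52 to 1.49). Jag2 had 20 and 1 UMIs there, or 3.01 and 0.35 CPM, −3.10 (−8.48 to −0.46). Red blood cells of cluster 7 had Jag2 at 2.09 and 2.48 CPM. The cluster 1 levels are thus near the free-RNA level, and no direction is given. In cluster 5 the ratios of Hes1 and Jag1 were 0.10 and 0.21, with intervals that held 0. Jag1 was lower in T cells of cluster 3, at 40.6 CPM (13 UMIs) and 5.28 CPM (17 UMIs), −2.94 (−4.07 to −1.78). The 13 control UMIs lay in 8 of 59 cells. T cells of cluster 11 went the other way, at 2.87 and 11.8 CPM (1 and 14 UMIs), with intervals that overlapped. No direction is given for Jag1 in T cells as a whole. Myeloid cells of cluster 2 had Notch1 at 93.4 and 116 CPM, 0.31 (0.03 to 0.59), and Notch2 at 116 and 121 CPM, 0.06 (−0.20 to 0.33).

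The rest of the pathway was read through 6 lists of 60 genes, of which 56 were in the table. In epithelial cells 45 had at least 20 UMIs, of which 3 were higher in the Keap1 cKO library (Neurl1b, Dtx4, Sox9) and 1 was lower (Ccnd1); the share called among all genes is the 17.5% given above, and the medians were −0.07 for the lists and −0.02 for all genes. Fringe and glycosylation genes, which modify receptor sugars, had 4 measured and 0 called: Lfng −0.98 (−1.53 to −0.46), Poglut1 −0.43 and Rfng 0.23. The 9 measured cleavage genes also had 0 called, with the gamma-secretase subunits Psenen at −0.14, Aph1a at −0.11 and Aph1b at −0.88, and the protease Furin, which processes the receptor precursor, at 0.52. Among 12 genes of endocytosis and turnover 2 were higher, the ubiquitin ligases Neurl1b at 1.18 (0.58 to 1.79) and Dtx4 at 1.56 (0.71 to 2.45, 20 and 32 UMIs), while Mib1, the ligase that starts ligand uptake, had 0.23 and Itch −0.07.

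Of 14 nuclear genes 0 were called: the corepressor Ncor1 had −0.32, Snw1 −0.27 and the coactivator Maml2 −0.68. Among 6 other targets, Ccnd1, the gene of cyclin D1, stood at 202 and 89.1 CPM, or −1.18 (−1.31 to −1.06) on the log2 scale, Sox9 at 6.61 and 14.1 CPM, 1.09 (0.67 to 1.51), and Cdkn1a, the gene of the cell cycle inhibitor p21, at −0.30. In cluster 4 alone 44 genes were measured, 3 higher and 4 lower, beside 18.9% of all genes called there, with Neurl1b at 3.59 from 6 and 29 UMIs and Ccnd1 at −1.23 (−1.41 to −1.05). In cluster 13, 1 of 40 was higher and 5 were lower, beside 7.04% and 6.32% of all genes (13.4% in either direction). Ccnd1 stood there at −1.56 (−1.84 to −1.29) and Cdkn1a at −1.10 (−1.25 to −0.95). In endothelial cluster 8, 6 of 44 were higher and 1 was lower, beside 13.4% and 3.54% of all genes, with Furin at 1.26 (0.77 to 1.80); the median was 0.36 against 0.17 for all genes. Between the layers of the control library 3 of 42 pathway genes were higher in cluster 4 and 2 lower, beside 14.3% and 5.9% of all genes. The number lower in cluster 13 lies above its share, and the other counts lie near or under the shares beside them. Nothing is read from these counts about the pathway genes. Named after their values were seen, Lfng had 106 UMIs in cluster 4 and 0 in cluster 13, a log2 ratio of at least 4.51, and Nrarp, a target that feeds back on the pathway, had 85 and 367 UMIs, −2.74 (−3.10 to −2.39).

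Levels over 24 sums (12 clusters with at least 50 cells in both libraries) were used to find genes of like pattern among 11745 genes, by Pearson's r of log2(CPM + 1). The sums share libraries, so r is a description. Nearest to Dlk2 were Wnt6 (0.86), Gpnmb (0.82) and Cbs (0.82), of which Gpnmb and Cbs also lead cluster 4, and nearest to Jag2 were St6galnac2 (0.88), Itga3 (0.87) and Dsg2 (0.84). For Notch1 they were Map3k1 (0.91), Sinhcaf (0.90) and Rps6ka5 (0.88), and for Notch3 Mycl (0.88), Ank3 (0.86) and Ephb6 (0.83). Dll4, nearly all endothelial, had Stc1 (0.97), Syt7 (0.93) and Meox1 (0.92), and Hes1 had Cd9 (0.91), Map3k20 (0.90) and Emp2 (0.89). Among the members themselves the closest pairs were Jag2 with Dlk2 (0.75), Dll1 with Jag2 (0.69) and Jag1 with Hes1 (0.63).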

How the data were processed

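Dissociated esophageal cells were profiled with droplet 3′ RNA sequencing, 1 library per genotype, per the labels' protocols. The submitters' processing notes list mm10, Seurat 4.0.2, Cell Ranger 6.0.1 and R 4.1.1. The authors deposited natural log values: 1 plus the UMIs of a gene after each cell was brought to a total of 10000, as read from the values. The smallest step of each cell gave back its UMIs, and 100% of positive values were whole within 0.01. A deposited table of other labels gave each cell's library, cell type and cluster. Cells had 500 to 100520 UMIs; no cell was removed, no doublet caller was run, and the libraries shared 5 barcode sequences. UMIs were summed per cluster and library and scaled to CPM, with exact Poisson, conditional binomial and Clopper-Pearson intervals, in Python 3.11.15 with scipy 1.17.1; the ratio intervals were tested on simulated data. A sum of 0 was set to 3 counts for a bound. Calls needed a fold of 2 and 20 UMIs. Locations come from GENCODE on mm10, which held 98.5% of the gene names. The rule for named genes took all 10 members, the 2 most abundant and 2 most different epithelial genes of each pathway list, Keap1, keratinocyte state genes, and the 3 genes most like each of 6 members; others were chosen after their values were seen. The rule also took 1 gene that is not reported here. Members, lists and markers were chosen with earlier results of these data known. Alternatives covered scaling, averaging over cells, the minimum of UMIs, the fold, cell depth and the clusters summed.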

Additional observations from a re-analysis of the deposited data

Results flagged for a closer look

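Some members differed in opposite directions in different clusters, with counting intervals on opposite sides of 0. The differences between clusters were not tested, since each genotype has 1 library. For Notch1 the Keap1 cKO over control log2 ratio was negative in clusters 4, 13 and 9 and positive in endothelial cluster 8. Other epithelial clusters did not share the negative sign: Notch1 stood at 72.3 and 137 CPM in cluster 10 (25 and 11 UMIs) and at 149 and 188 CPM in cluster 15 (241 and 57 UMIs) of the control and Keap1 cKO library, with intervals that overlapped. The gap was 0.92 between cluster 8 and basal-like cluster 4, 0.66 between cluster 8 and suprabasal-like cluster 13, and 2.83 between cluster 8 and cluster 9, where the Notch1 ratio rests on 15 and 6 UMIs and was 0.0037 when averaged over cells. Dll1 was lower in cluster 4 and higher in cluster 8, a gap of 2.62 that rests on 9 control UMIs in cluster 8. Hes1 was higher in cluster 13 than in its control and lower in clusters 9 and 8, with gaps of −1.61 (cluster 9 minus cluster 13) and −0.65 (cluster 8 minus cluster 13).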

How the results depend on the processing

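No paired analysis was possible because each genotype has 1 library. Of 118 counts of members under other settings, 102 stayed within 1.5 times the count given, and 16 moved. With no minimum of UMIs, 1 member was higher in epithelial cells, 2 were lower in cluster 13, 5 lower in cluster 9, and 1 higher in endothelium than in basal-like cells of the control library. With 1.5-fold counted, the number higher was 1 for epithelial cells, 2 for cluster 4, 1 for cluster 13 and 4 for cluster 8; 2 were lower in basal-like than suprabasal-like cells and 4 lower in endothelium than in basal-like cells of the Keap1 cKO library. With a minimum of 50 UMIs, the number lower was 0 for cluster 13, 1 for cluster 9 and 0 for cluster 8. Cluster 9 had 1 lower member with cells of at least 2000 UMIs or with means over cells. Without cells with a cycling marker UMI, 0 were higher in cluster 4. Fewer genes or cells enter by construction under the higher minimum and the last setting; for the others the cause was not tested. Of 236 ratios of single members, 36 lay outside the counting interval of the value given, and 1 reversed: Notch1 in cluster 9, 0.0037 as a mean over cells. Averaged over cells, Jag1 and Hes1 in epithelial cells and Hes1 and Notch2 in cluster 4 also changed sign. Depth limits Dll4, Hey1, Dll1 and Jag2 outside their main clusters.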
